A study of Homo sapiens with 18 samples.

Results

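The genes described here encode the integrin and laminin subunits. They were taken from the authors' table of estimated counts as every protein-coding gene whose symbol names an integrin alpha, an integrin beta or a laminin alpha, beta or gamma chain. The rule found 37 of the 25296 genes, of which 25 encode integrins (17 alpha and 8 beta subunits) and 12 encode laminins (5 alpha, 4 beta and 3 gamma chains). The rule reads gene symbols and no measured value, although earlier results of these data were known when the genes were chosen. The cells were U2OS, an established human osteosarcoma line, in 3 derived lines: EV carried the empty retroviral vector MigR1, WT the unmutated DNMT3A gene and MUT a mutated copy. DNMT3A encodes a de novo DNA methyltransferase. The mutation is named R882C in the series text and R882H in the sample labels. Each line was sampled untreated, which the series text calls a vehicle control, and after cytarabine (10 µM for 24 h), a nucleoside drug whose incorporation stalls DNA replication. Each of the 6 groups had 3 biological replicates, plated as separate cultures. The labels name 1 line per construct, so a difference between constructs and a difference between separately derived lines cannot be told apart.

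Integrins are cell surface receptors made of 1 alpha and 1 beta subunit that anchor the cytoskeleton to the extracellular matrix or to other cells. The pairing sets the ligand: ITGB1 pairs with most alpha subunits into receptors for collagen, laminin or fibronectin, the ITGAV receptors bind vitronectin and latent TGF-beta, and the ITGB2 receptors are known from leukocytes. Laminins are secreted trimers of 1 alpha, 1 beta and 1 gamma chain that build the sheet of the basement membrane. In bone cells and osteosarcoma lines, integrins are known for attachment to collagen and fibronectin.

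Since DNMT3A methylates cytosine in CG dinucleotides, the promoters of 5 members are shown with each CG in capitals. ITGA2B, ITGA11, ITGA2 and LAMA5 rose with cytarabine in every line, and ITGB5 passed the threshold in none. For ITGA2B a rise was built into the test, since it had enough counts for testing only through the treated libraries. Each run holds the 250 bases before the RefSeq start, written 5′ to 3′ on the gene's strand in GRCh38.p14. RefSeq promoters were matched for 26 of the 37 members.
ITGA2B, chr17:44389650-44389899, minus strand: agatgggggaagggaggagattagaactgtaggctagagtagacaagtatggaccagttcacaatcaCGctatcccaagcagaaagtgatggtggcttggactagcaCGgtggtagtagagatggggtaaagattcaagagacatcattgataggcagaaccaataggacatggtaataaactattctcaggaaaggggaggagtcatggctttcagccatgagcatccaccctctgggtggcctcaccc
ITGA11, chr15:68432164-68432413, minus strand: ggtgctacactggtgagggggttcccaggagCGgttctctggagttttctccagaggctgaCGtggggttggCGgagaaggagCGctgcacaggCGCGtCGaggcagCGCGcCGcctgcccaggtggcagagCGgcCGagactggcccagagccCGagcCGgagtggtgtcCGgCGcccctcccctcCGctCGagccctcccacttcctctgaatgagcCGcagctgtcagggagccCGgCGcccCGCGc
ITGA2, chr5:52989102-52989351, plus strand: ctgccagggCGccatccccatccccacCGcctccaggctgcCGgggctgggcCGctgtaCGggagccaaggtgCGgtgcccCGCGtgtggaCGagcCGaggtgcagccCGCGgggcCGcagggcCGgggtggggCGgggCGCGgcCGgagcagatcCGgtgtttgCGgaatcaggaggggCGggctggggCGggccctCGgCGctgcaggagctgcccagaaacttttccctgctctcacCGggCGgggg
LAMA5, chr20:62367313-62367562, minus strand: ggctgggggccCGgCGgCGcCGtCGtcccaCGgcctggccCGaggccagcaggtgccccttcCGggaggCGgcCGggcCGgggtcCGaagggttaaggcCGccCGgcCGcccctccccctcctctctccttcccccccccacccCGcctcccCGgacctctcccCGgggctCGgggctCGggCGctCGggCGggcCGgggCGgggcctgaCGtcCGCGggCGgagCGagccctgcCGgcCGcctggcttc
ITGB5, chr3:124901419-124901668, minus strand: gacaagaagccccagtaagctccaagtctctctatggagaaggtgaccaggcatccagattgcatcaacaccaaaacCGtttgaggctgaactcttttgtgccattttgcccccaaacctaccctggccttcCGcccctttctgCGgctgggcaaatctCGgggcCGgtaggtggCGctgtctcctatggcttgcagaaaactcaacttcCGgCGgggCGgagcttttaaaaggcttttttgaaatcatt
The 5 windows differed in CG content. The ITGA2B window held 2 CG dinucleotides, ITGB5 held 9, ITGA11 held 23, ITGA2 held 26 and LAMA5 held 32. The median of all 35116 RefSeq promoters was 11, which placed ITGA2B at the 14.7th percentile and LAMA5 at the 90.5th. The Sp1 box GGGCGG, searched on both strands, was in the windows of 13 of the 26 matched members and in 42.6% of all promoters. The TEAD motif CATTCC was found for 4 members and in 11.9% of all promoters. For LAMA3 and ITGB1 the RefSeq start lies over 1 kb from the start in the authors' table (183577 and 47563 bases), so their windows belong to another start of the gene. The AP-1 motif TGANTCA was found for LAMA3 alone among the members (6.57% of all promoters), TATAAA for ITGA6 alone (10.7%), and the RUNX motif TGTGGT for none of the 26 (11%). DNA methylation itself was not measured, and a match is only a string of letters.

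Library totals ran from 15.4 to 21.9 M estimated counts with a median of 19.3 M. DNMT3A, which checks the labels, was at 26.2 to 27.5 CPM (counts per M) in untreated EV libraries, at 129 to 139 in WT and at 254 to 615 in MUT, where replicate 3 was the lowest. Of 9 osteoblast lineage markers, 7 were in the table with a summed level in untreated libraries of 249 to 264 CPM in EV, 130 to 142 in WT and 212 to 249 in MUT, and up to 373 CPM with cytarabine. Among them COL1A1 was lower in untreated WT than in EV by -1.48 (SE 0.104, adjusted p 9.59e-09). RUNX2 was at 29.6 to 53.2 CPM in every library. BGLAP stayed at or under 0.437 CPM and SPP1 at or under 1.35 CPM, while SP7 and IBSP are not analysed here. The 4 endothelial markers summed to 2.17 to 4.91 CPM in untreated and 5.47 to 12.4 CPM in treated libraries, and CDH5 was lower in untreated WT than in EV (-1.80, SE 0.296, adjusted p 0.000361). The part of these marker shifts in the line differences was not tested.

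Of the 37 members, 32 had enough counts for the test across 18226 genes. The 5 others were ITGA8, ITGAL, ITGB6, ITGB7 and LAMB4, with at most 11 estimated counts in any library. A level of about 0.518 CPM in 3 libraries was needed to pass. Among the 32, ITGA2B alone fell short of that in the untreated libraries and passed through the treated ones, so a rise was built into its test.

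Within untreated EV cells the most abundant subunit transcripts, per kb of exonic length, were those of LAMB3, ITGB5 and ITGB1. LAMB3, the beta chain of the epidermal laminin, reached 75.8 ± 0.105 CPM per kb (SD, n = 3). ITGB5, a vitronectin receptor subunit, was at 55.8 ± 1.42 CPM per kb and ITGB1, the common beta subunit, at 52.9 ± 0.985 CPM per kb. The order of these 3 depended on the length used: per kb of the longest transcript, ITGB1 was highest at 137 ± 2.56 CPM per kb, with ITGB5 at 81.9 ± 2.08 and LAMB3 at 81.8 ± 0.113.
Next among the alpha subunits per kb of exonic length came ITGA3 at 40.5 ± 0.984 CPM per kb, ITGA6 at 17.7 ± 0.765, ITGA5 at 15.2 ± 0.825 and ITGAV at 12.3 ± 0.805. ITGA3 and ITGA6 are laminin receptor subunits, and ITGA5 and ITGAV bind the RGD motif of fibronectin and vitronectin. Per kb of the longest transcript ITGAV, at 30.0 ± 1.96 CPM per kb, stood above ITGA5 and ITGA6. LAMC1, the gamma chain shared by most laminins, was at 25.9 ± 1.29 CPM per kb of exonic length. Among the alpha chains LAMA1 was at 4.21 ± 0.195 and LAMA5 at 4.01 ± 0.384 CPM per kb, and their replicates overlapped. LAMA3, the alpha chain that pairs with LAMB3, was far lower, with 0.993 to 1.23 CPM in the 3 libraries.

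**Figure D1:**
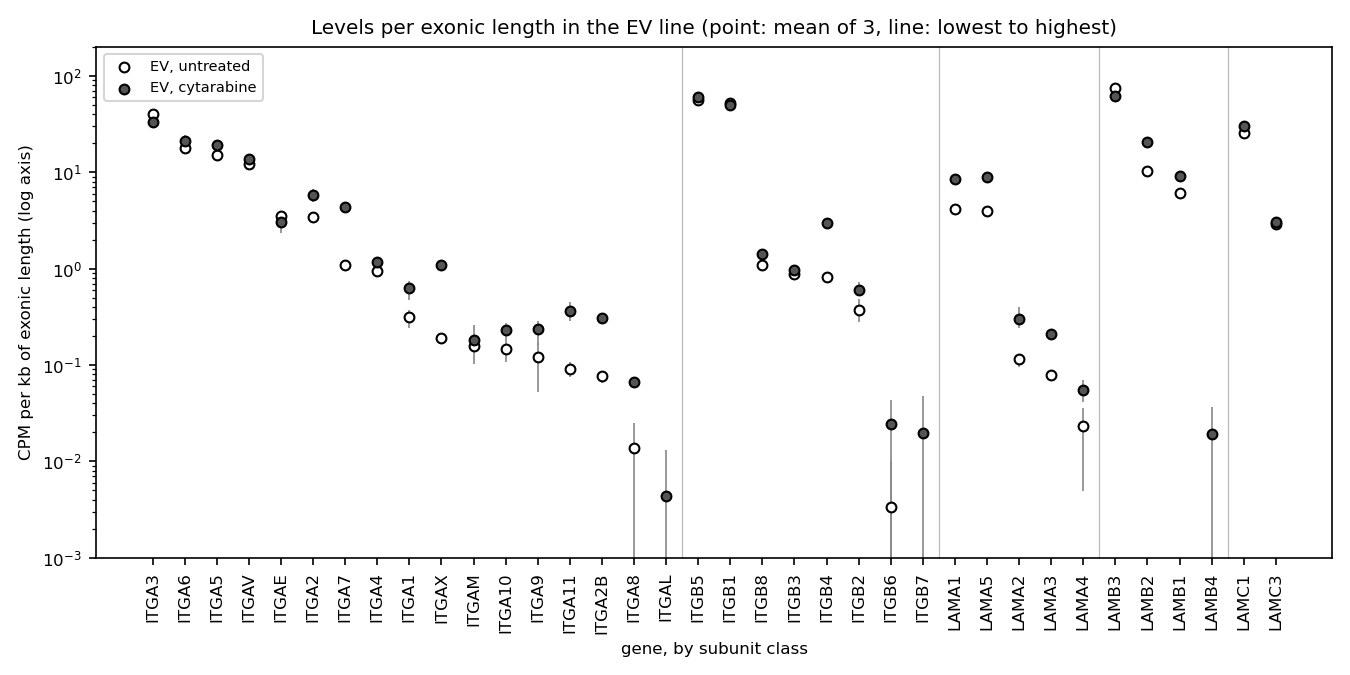
Level of integrin and laminin genes in the EV line, in CPM per kb of exonic length on a log axis, ordered within each subunit class (open points, mean of 3 untreated libraries; filled points, mean of 3 cytarabine libraries; lines, lowest to highest library). Means of 0 (ITGAL, ITGB7 and LAMB4 untreated) cannot be drawn on the log axis; LAMB3, ITGB5 and ITGB1 stand highest, from 52.9 to 75.8 CPM per kb in untreated cells.

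Cytarabine raised most integrin and laminin transcripts that it changed. In EV cells 17 of the 32 tested members rose and 3 fell, where 26.1% of all tested genes rose and 22.9% fell (49.1% called in either direction). In WT cells 20 rose and 2 fell (26.3% and 22.7% of all genes, 49.0% in either direction). In MUT cells 22 rose and 3 fell (30.4% and 25.9% of all genes, 56.3% in either direction). A call here is an adjusted p under 0.05 in edgeR's quasi-likelihood test, adjusted over all 18226 genes. The median log2 fold change of the tested members was 0.63 for EV, 0.51 for WT and 0.69 for MUT. Over all genes it was 0.05, 0.03 and 0.05. In bulk RNA, fewer cells of a type and less RNA per cell cannot be told apart.
In all 3 lines 14 members rose and none fell, where 18.9% of all genes rose and 16.4% fell in all 3 (35.3% in 1 direction). The 14 were ITGA1, ITGA2, ITGA2B, ITGA5, ITGA7, ITGA11, ITGAX, ITGB2, ITGB4, LAMA1, LAMA3, LAMA5, LAMB1 and LAMB2. ITGA2B counts in the 14 and in the rises of each line, although a rise was built into its test. Only ITGAM, ITGB1 and ITGB5 passed the threshold in no line.
Low-abundance genes as a whole rose more often than abundant ones, so the members were also read within abundance. Where the average log2 CPM was 4 or more, 8 of 18 members rose and 3 fell in EV, against 20.7% and 39.7% of all such genes. In WT 11 rose and 2 fell (22.5% and 37.4% of all such genes), and in MUT 12 rose and 3 fell (25.5% and 41.5%). Among the 14 members under 4, ITGA2B included, 9 rose in EV, 9 in WT and 10 in MUT and none fell. Of all genes under 4, 31.5% rose and 6.41% fell in EV, 30.0% and 8.29% in WT and 35.3% and 10.4% in MUT.

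**Figure D2:**
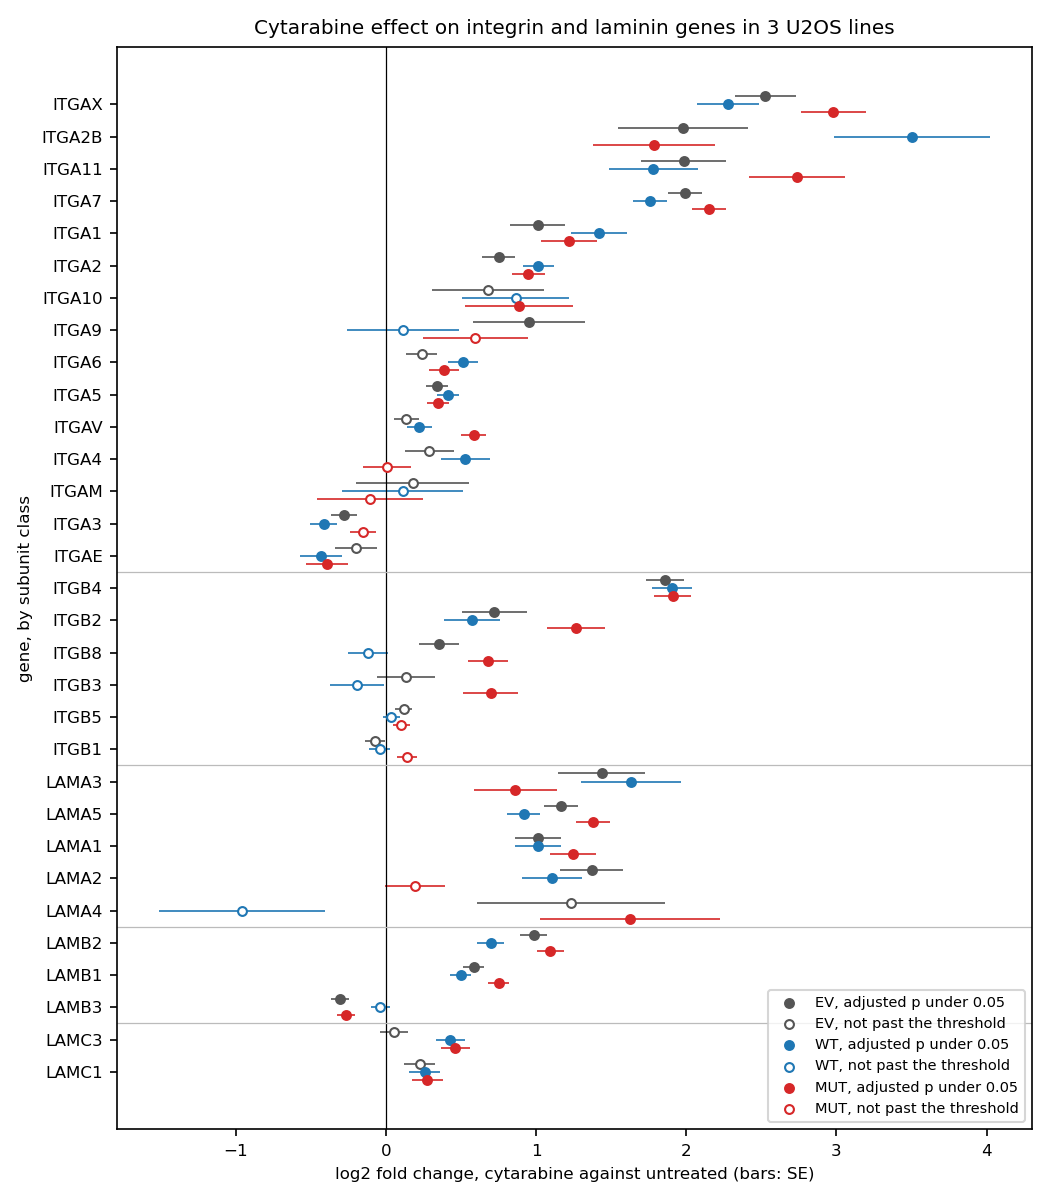
Log2 fold change of cytarabine against untreated for tested genes in EV (grey), WT (blue) and MUT (red), grouped by subunit class; bars are standard errors and filled points have an adjusted p under 0.05. Most points lie right of 0, with ITGAX from 2.28 to 2.98, and LAMB3, ITGA3 and ITGAE lie left of 0 in every line.

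Of the 4 collagen receptor subunits, ITGA1, ITGA2 and ITGA11 rose in all 3 lines. ITGA11, a fibrillar collagen receptor subunit of mesenchymal cells, was at 0.818, 0.993 and 1.17 CPM in untreated EV libraries and at 3.13, 4.93 and 3.81 CPM after cytarabine. In MUT it went from 0.251, 0.314 and 0.685 CPM to 3.16, 2.54 and 2.70 CPM. The treated libraries lay above the untreated ones without overlap in every line. The log2 fold change was 1.98 (SE 0.283) in EV, 1.78 (SE 0.295) in WT and 2.74 (SE 0.32) in MUT, with adjusted p from 6.49e-07 to 5.35e-05.
ITGA2, the collagen receptor subunit also known from platelets and epithelia, was at 28.0, 27.4 and 25.3 CPM in untreated EV and at 38.6, 53.0 and 44.6 CPM in treated EV. In WT it was at 41.9, 42.1 and 40.3 CPM untreated and at 85.4, 78.5 and 87.2 CPM treated. Its level approximately doubled in WT, with a fold of 2.02 there, 1.68 in EV and 1.93 in MUT (adjusted p at most 1.19e-05). ITGA1, which lies beside ITGA2 on chromosome 5, had log2 fold changes of 1.01 (SE 0.184) in EV, 1.42 (SE 0.189) for WT cells and 1.22 (SE 0.187) for MUT cells, all rises. Part of ITGA1 (52787896 to 52959211, plus strand) overlaps PELO on the same strand, and how reads there were assigned is not given in the sources used here. ITGA10, a chondrocyte collagen receptor subunit, passed in MUT by a narrow margin (log2 fold change 0.89, adjusted p 0.0442), a call that 11 of 18 fits leaving out 1 library did not keep (highest adjusted p 0.217, without untreated MUT replicate 2). Its log2 fold change was 0.68 in EV (adjusted p 0.141) and 0.86 in WT (0.0524).

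Among the laminin receptor subunits, ITGA7 and ITGB4 rose several-fold while ITGA3 tended down. In hg38 ITGA7 lies on chromosome 12 (55684568 to 55716044, minus strand) and ITGB4 on chromosome 17 (75721328 to 75757819, plus strand). ITGA7, the laminin receptor subunit of muscle, was at 9.41, 10.4 and 10.3 CPM in untreated EV and at 44.2, 34.6 and 40.8 CPM treated. In WT it rose from 7.90, 9.58 and 7.75 CPM to 29.7, 26.0 and 29.4 CPM, and in MUT from 7.52, 7.48 and 7.14 CPM to 36.5, 29.9 and 32.1 CPM. The groups were far apart in all 3 lines, with folds of 3.98, 3.38 and 4.44 (adjusted p at most 4.65e-10). It overlaps BLOC1S1 and METTL7B on the opposite strand by 8 and 45 bases. The use of strand is not given in the sources used here, so how reads from such overlaps were assigned is not known.
ITGB4, which pairs with ITGA6 into the hemidesmosome receptor, was at 5.61, 5.37 and 5.66 CPM in untreated EV, 3.14, 3.76 and 3.68 in WT and 8.37, 8.43 and 6.22 in MUT. After cytarabine it was at 21.2, 19.2 and 20 CPM in EV, 13.6, 12.2 and 13.8 in WT and 31.5, 24.8 and 30.3 in MUT. The lines thus differed in level and shared the size of the rise, with log2 fold changes of 1.86 (SE 0.127), 1.91 (SE 0.134) and 1.91 (SE 0.121). The differences between these rises were at most 0.05 on the log2 scale, and none passed the threshold. Standard errors derived from differences so near 0 are unreliable and are not given. ITGB4 overlaps GALK1 on the opposite strand.
Its partner ITGA6 changed less. ITGA6 rose in WT (0.52, SE 0.101) and MUT (0.39, SE 0.102), and its log2 fold change in EV was 0.24 with an adjusted p of 0.0595. ITGA3, the most abundant alpha subunit, fell from 395, 407 and 388 CPM to 316, 352 and 312 CPM in EV and from 473, 480 and 477 CPM to 357, 355 and 360 CPM in WT. The WT fall of -0.41 (SE 0.0881) held under all 26 alternatives, while the EV fall of -0.28 (adjusted p 0.0127) was lost without treated EV replicate 3 (-0.25, adjusted p 0.0554) and with upper-quartile scaling (adjusted p 0.0607). In MUT ITGA3 had a log2 fold change of -0.15 (adjusted p 0.15), and its replicates overlapped.

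Among the fibronectin and vitronectin receptor subunits ITGA5 rose in all 3 lines, and ITGAV, ITGB3 and ITGB8 had their largest log2 fold changes in MUT. ITGA5, the fibronectin receptor subunit, rose by 0.34 (SE 0.0735), 0.41 (SE 0.0735) and 0.34 (SE 0.0736) on the log2 scale, from 108, 110 and 119 CPM to 132, 152 and 142 CPM in EV. Its treated libraries lay above the untreated ones in every line. ITGB1 was at 771, 755 and 784 CPM in untreated EV and at 711, 724 and 760 CPM treated, and its log2 fold changes ran from -0.07 to 0.14 (adjusted p 0.0838 to 0.634). ITGB5 had log2 fold changes of 0.12, 0.04 and 0.10 (adjusted p 0.0991 to 0.631). These 2 were the beta subunits of highest level, and neither passed in any line.
ITGAV rose in MUT, from 225, 181 and 185 CPM to 293, 289 and 304 CPM (0.58, SE 0.0852, adjusted p 9.84e-06). Its WT call (0.22, adjusted p 0.0359) was lost without any 1 of 5 of the 6 WT libraries (highest adjusted p 0.122, without untreated WT replicate 3), and in EV the value was 0.14 (adjusted p 0.198). ITGB3, the vitronectin receptor subunit shared with platelets, also rose in MUT (0.70, SE 0.182, adjusted p 0.003) and had values of 0.13 in EV and -0.19 in WT. In the test of the difference in response, ITGAV gave 0.45 for MUT against EV (adjusted p 0.106) and 0.36 for MUT against WT (0.145). ITGB3 gave 0.89 for MUT against WT (0.0972), and neither gene passed in any such test. ITGB8, which pairs with ITGAV to bind latent TGF-beta, rose in MUT from 13.8, 16 and 10.7 CPM to 22.7, 18.1 and 24.0 CPM (0.68, SE 0.134, adjusted p 0.000249). In WT its values overlapped, with 15.2, 17.6 and 16.7 CPM untreated and 16.8, 12.8 and 15.7 CPM treated. Its EV call (0.35, adjusted p 0.0338) did not survive leaving out 5 of the 6 EV libraries in turn (highest adjusted p 0.096, without treated EV replicate 2).
ITGA4, a fibronectin and VCAM1 receptor subunit, passed in WT (0.53, adjusted p 0.0114), which was lost without treated WT replicate 2 (adjusted p 0.0516) or untreated WT replicate 1 (adjusted p 0.0556). ITGA9, a tenascin receptor subunit, passed in EV (0.95, adjusted p 0.0392), which was lost without any 1 of 4 EV libraries (highest adjusted p 0.189, without untreated EV replicate 3). The span of ITGA9 overlaps that of ITGA9-AS1 on the opposite strand by 78084 bases. Their mean estimated counts were 29.4 and 76.1, and the use of strand is not known.

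Subunits best known from blood cells were low, and several rose. ITGAX, the alpha subunit of a leukocyte complement receptor, was at 1.34, 1.29 and 1.41 CPM in untreated EV, 1.32, 1.48 and 0.825 in WT and 1.00, 0.629 and 0.914 in MUT. After cytarabine it was at 7.63, 7.18 and 8.55 CPM in EV, 5.29, 6.27 and 6.19 in WT and 5.71, 6.99 and 7.71 in MUT. All treated libraries lay above all untreated ones, with folds of 5.77, 4.85 and 7.88 (adjusted p at most 3.64e-08). ITGAM, its neighbour on chromosome 16 (31259967 to 31332893; ITGAX 31355134 to 31382998, both plus strand), stayed between 0.435 and 1.65 CPM and passed in no line, with log2 fold changes of 0.18, 0.11 and -0.10.
ITGB2, the beta subunit that pairs with both, was at 2.45, 2.04 and 3.57 CPM in untreated EV and at 3.81, 4.06 and 5.35 treated. In MUT it rose from 4.61, 3.27 and 4.45 CPM to 10.2, 8.57 and 11 CPM (1.26, SE 0.194, adjusted p 1.69e-05). The smaller rises in EV (0.72, adjusted p 0.0086) and WT (0.57, adjusted p 0.0151) were not kept in every fit. The EV call was lost without treated replicate 3 (adjusted p 0.0637) or untreated replicate 2 (0.059), and the WT call without treated replicate 1 (0.0539), untreated replicate 1 (0.0678) or untreated replicate 2 (0.0735). ITGB2 overlaps ITGB2-AS1 on the opposite strand by 8629 bases (mean estimated counts 124.4 and 23.6).
ITGA2B, the platelet fibrinogen receptor subunit, stood at 0.467, 0.467 and 0.369 CPM in untreated EV and 1.66, 1.94 and 1.63 treated. In WT it went from 0.196, 0.0529 and 0.110 CPM, which are 4, 1 and 2 estimated counts, to 1.95, 0.811 and 1.55 CPM. Its fitted log2 fold change of 3.50 (SE 0.522) in WT rests on those few counts, and the values were 1.98 (SE 0.433) in EV and 1.79 (SE 0.408) in MUT.
ITGAE, known from intraepithelial lymphocytes, fell in WT (-0.43, adjusted p 0.0147) and MUT (-0.39, adjusted p 0.0226). The WT call was lost without any 1 of 4 WT libraries (highest adjusted p 0.0601, without untreated replicate 2), and the MUT call without treated replicate 3 (0.0924) or untreated replicate 1 (0.0621). ITGAE overlaps HASPIN, a mitotic kinase gene that lies on the opposite strand.
Haematopoietic markers were low, and their summed level rose, mostly through 1 gene. Of 8 such markers 6 were in the table, and their summed level went from 3.33 to 5.04 CPM untreated to 7.53 to 10.1 treated in EV, from 4.56 to 5.13 to 9.38 to 10.4 in WT and from 3.31 to 5.16 to 11 to 12.2 in MUT. CD34 made up most of the rise, from 0.993 to 2.55 CPM untreated to 4.32 to 8.66 CPM treated. CD68 passed in WT (log2 fold change 0.71, adjusted p 0.025) but not in EV (adjusted p 0.773) or MUT (0.259). PTPRC passed in no line (adjusted p 0.0662 to 0.998). The defining leukocyte gene PTPRC stayed between 0.171 and 1.41 CPM, and SPI1, CD79A and HBB at or under 0.428 CPM, each at 0 in some libraries. The part of other cells in these rises was not tested.

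Among the laminins, the alpha and beta chains of the widespread basement membrane forms rose, and LAMB3 fell or did not pass. LAMA5 was at 51.5, 58.2 and 62.3 CPM in untreated EV and at 135, 120 and 131 CPM treated. In WT it went from 80.1, 83.0 and 77.5 CPM to 159, 145 and 150 CPM, and in MUT from 63.8, 56.7 and 41.9 CPM to 149, 125 and 149 CPM. Treated libraries lay above untreated ones in each line, and untreated WT lay above untreated EV and MUT. The log2 fold changes were 1.17 (SE 0.115), 0.92 (SE 0.112) and 1.38 (SE 0.115). LAMA5 (chromosome 20, 62307955 to 62367313, minus strand) overlaps ADRM1 on the opposite strand.
LAMA1, the alpha chain of early embryonic basement membranes, was at 63.2, 68.8 and 68.2 CPM in untreated EV and at 125, 150 and 129 CPM treated. Its folds were 2.02 in EV, 2.02 in WT and 2.37 in MUT (adjusted p at most 2.11e-05). Untreated MUT replicates were widely spread at 58.4, 80.9 and 38.1 CPM, yet all lay below the treated ones at 142, 140 and 137 CPM.
LAMB2 rose from 67.1, 70.3 and 76.3 CPM to 140, 143 and 140 CPM in EV, from 80.3, 86.8 and 75.8 to 138, 126 and 131 in WT and from 73.7, 65.3 and 54.8 to 142, 128 and 144 in MUT. LAMB1 rose by 0.58 (SE 0.0707), 0.50 (SE 0.0701) and 0.75 (SE 0.0709) on the log2 scale, and all of its treated libraries lay above the untreated ones of the same line. LAMB1 overlaps DLD on the opposite strand. LAMC1, the gamma chain that completes these trimers, changed far less: 0.23 in EV (adjusted p 0.0788), 0.26 in WT (0.0432) and 0.28 in MUT (0.0294). The WT call was lost in 12 of 18 fits leaving out 1 library (highest adjusted p 0.12, without treated WT replicate 2) and the MUT call in 5 (highest 0.272, without untreated MUT replicate 3).
LAMB3, the beta chain of highest level per kb, went the other way. LAMB3 fell in EV (-0.30, SE 0.0618) and MUT (-0.27, SE 0.0616), and its WT value was -0.04 (adjusted p 0.653).
LAMA3, which forms a trimer with LAMB3, rose. It was at 1.17, 0.993 and 1.23 CPM in untreated EV and at 3.23, 2.75 and 3.21 CPM treated, with log2 fold changes of 1.44 (SE 0.289) in EV and 1.63 (SE 0.333) in WT. The MUT call (0.86, adjusted p 0.0125) was lost without treated replicate 3 (0.0512) or untreated replicate 3 (0.0834), and with only the MUT libraries in the fit (0.0781).
LAMA2, the muscle laminin alpha chain, rose in EV from 2.51, 3.39 and 3.32 CPM to 6.36, 10.6 and 7.10 CPM and in WT from 3.19, 5.08 and 5.50 to 9.19, 10.1 and 10.3. In MUT it was at 4.71, 4.59 and 5.31 CPM untreated and 4.92, 6.03 and 5.80 treated, so that the groups overlapped. The log2 fold changes were 1.37 (SE 0.211), 1.10 (SE 0.198) and 0.20 (SE 0.202). The difference of MUT from EV was -1.18 (SE 0.292) with an adjusted p of 0.0953, and from WT -0.91 (SE 0.283) with an adjusted p of 0.121, neither past the threshold. LAMC3 rose in WT (0.43, SE 0.0963) and MUT (0.46, SE 0.098) and had 0.05 in EV (adjusted p 0.674). LAMA4, a vascular laminin alpha chain at 0.0584 to 1.36 CPM, passed in MUT (1.63, adjusted p 0.0264), which was lost without any 1 of 4 MUT libraries (highest adjusted p 0.153, without treated replicate 1).

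**Figure D3:**
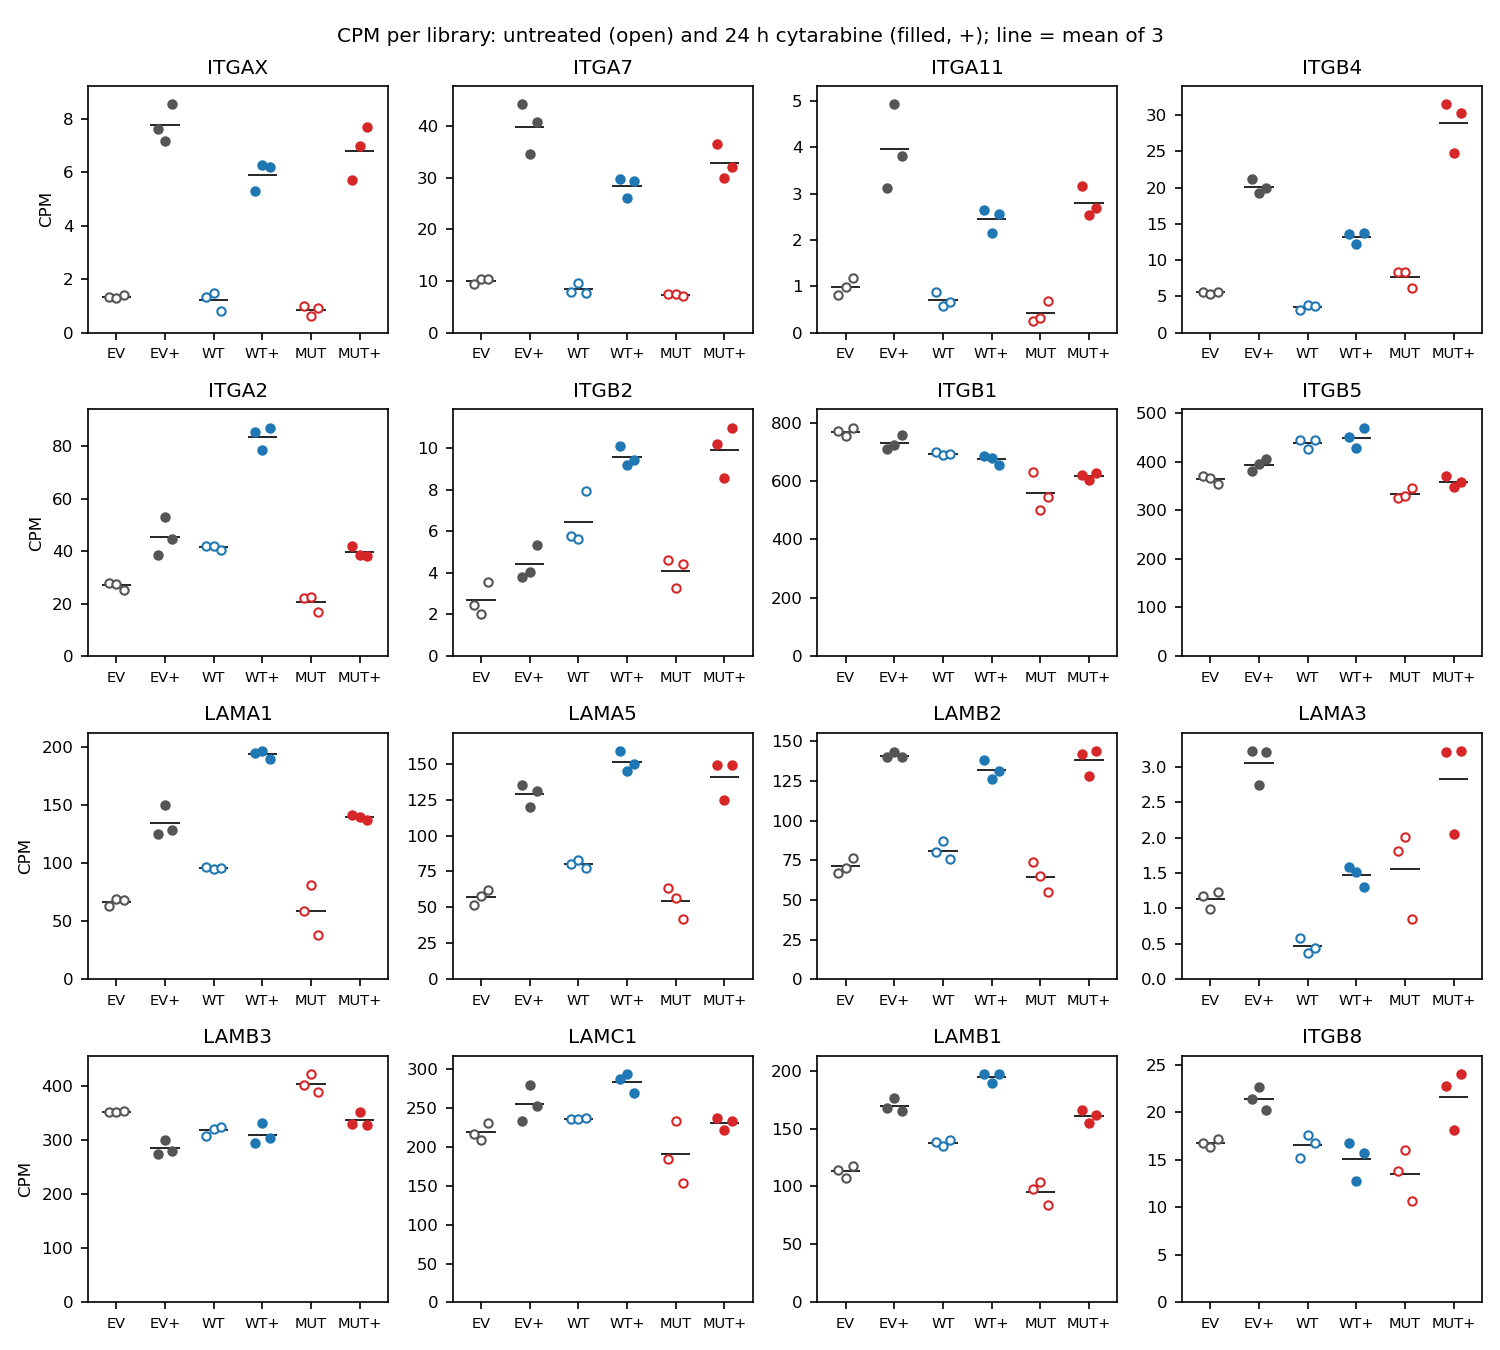
CPM of 16 integrin and laminin genes in each of the 18 libraries (open points, untreated; filled points with + on the axis, cytarabine; line, mean of 3), with each vertical axis starting at 0. ITGAX, ITGA7, ITGA11, ITGB4, LAMA5 and LAMB2 separate by treatment in every line, ITGB1 and ITGB5 passed the threshold in no line, and untreated MUT replicate 3 is the lowest untreated MUT library for LAMA1, LAMA5, LAMB2, LAMA3, LAMB1, LAMC1 and ITGB8.

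The make-up of the beta chain and alpha subunit levels shifted in value. LAMB3 made up 82.2% ± 0.773 (SD, n = 3) of the beta chain level per kb of exonic length in untreated EV and 67.4% ± 0.738 after cytarabine, and LAMB2 went from 11.2% ± 0.623 to 22.6% ± 0.608. In MUT, LAMB2 went from 9.25% ± 1.12 to 19.9% ± 1.47. ITGA3 went from 42.3% ± 0.853 to 31.9% ± 1.00 of the alpha subunit level in EV and from 46.3% ± 0.636 to 31.4% ± 0.128 in WT. ITGA7 went from 1.15% ± 0.0604 to 4.24% ± 0.812 in EV and remained a small part of the class. Of the laminin alpha chains in EV, LAMA1 stayed within the spread of the replicates, at 49.9% ± 1.48 untreated and 47.0% ± 3.73 treated, as did LAMA5 (47.5% ± 1.38 and 49.8% ± 3.96). LAMA3 went from 0.928% ± 0.122 to 1.17% ± 0.126. These shares describe transcripts, and they were not tested.

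Before treatment the lines already differed in a pattern that split the laminins. In WT against EV, 11 of 32 tested members passed, 7 higher and 4 lower. Of all genes 11.7% passed, 4.30% higher and 7.36% lower. In MUT against WT 18 members passed, 7 higher and 11 lower, and 21.2% of all genes did, 11.7% higher and 9.54% lower. In MUT against EV 11 members passed, 4 higher and 7 lower, and 19.9% of all genes did, 9.88% higher and 10.0% lower. EV, WT and MUT each enter 2 of these comparisons, so the 3 are not independent.
LAMA3 and LAMB3, which pair in the epidermal laminin, and ITGB4, the beta subunit of its hemidesmosome receptor, were higher in untreated MUT than in WT. This grouping was chosen after the values were seen. LAMA3 was at 1.81, 2.01 and 0.857 CPM in MUT and at 0.588, 0.370 and 0.440 CPM in WT, a fold of 3.29 (adjusted p 0.00116). LAMB3 was at 402, 422 and 389 CPM against 308, 320 and 325, a fold of 1.27 (adjusted p 0.000548). ITGB4 had a fold of 2.18 (adjusted p 1.48e-05). No MUT library of these 3 genes overlapped a WT library, and the 3 calls held in every fit that left out a library. Their receptor subunit ITGA6 had a log2 difference of -0.18 with an adjusted p of 0.22.
Chains of the widespread forms were lower in MUT than in WT. LAMA1 differed by -0.70 (SE 0.155; adjusted p 0.0916 with only the compared groups in the fit), LAMA5 by -0.57 (SE 0.115) and LAMB1 by -0.53 (SE 0.071) on the log2 scale. LAMB2 (-0.32, adjusted p 0.0136) and LAMC1 (-0.31, adjusted p 0.0378) were less secure. The LAMB2 call was lost without untreated MUT replicate 3 (0.086) or WT replicate 2 (0.111), and the LAMC1 call without any 1 of 5 libraries (highest adjusted p 0.223, without untreated MUT replicate 3).
Against EV, untreated WT was higher in LAMA5 (0.48, SE 0.115), LAMB1 (0.29, SE 0.0707) and LAMA1 (0.53, SE 0.154), and lower in ITGB4 (-0.66, SE 0.145) and LAMA3 (-1.26, SE 0.347). The ITGB4 call held in every fit leaving out a library. LAMA5 was lost without EV replicate 1 (adjusted p 0.0574), LAMB1 without EV replicate 2 (0.0711), LAMA3 without any 1 of 4 libraries (highest 0.09, without WT replicate 2) and LAMA1 without any 1 of the 6 (highest 0.115, without EV replicate 1). Untreated MUT against EV gave LAMB3 0.20, LAMA3 0.46 (0.311) and ITGB4 0.47 (SE 0.134). The LAMB3 call (adjusted p 0.0283) was lost without any 1 EV library (highest 0.0825), and the ITGB4 call (0.0188) without EV replicate 2 (0.0655), EV replicate 3 (0.0503) or MUT replicate 1 (0.068).
Epithelial markers were low and differed between lines in part. The summed level of 4 of 4 such markers in untreated libraries was 5.67 to 6.66 CPM in EV, 3.02 to 3.92 in WT and 5.41 to 6.97 in MUT, and none of the 4 was at 0. CDH1 was at 2.09 to 2.51 CPM in EV, 0.370 to 0.736 in WT and 0.440 to 0.802 in MUT, and EPCAM at 2.80 to 3.39, 1.85 to 2.42 and 2.58 to 3.56. CDH1 was lower than in EV in WT (-2.10, adjusted p 0.000207) and MUT (-1.70, adjusted p 0.000921), and EPCAM was higher in MUT than in WT (0.60, adjusted p 0.0296). KRT5 and KRT14 passed in no untreated comparison (adjusted p 0.156 to 0.862). With cytarabine the sum was 9.19 to 10.9 CPM in EV, 4.27 to 5.80 in WT and 7.36 to 12.3 in MUT. CDH1 rose with the drug in all 3 lines (1.15, 1.55 and 1.67, adjusted p at most 0.00143), and EPCAM, KRT5 and KRT14 passed in none. In treated MUT, KRT5 was at 5.01 CPM in replicate 1 and at 0.335 and 0.261 in the others. KRT5 (3.19, adjusted p 0.0309) and EPCAM (0.53, adjusted p 0.0468) were higher in treated MUT than in treated WT. The part of the epithelial markers in the laminin differences was not tested.

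Integrin subunits also differed between untreated lines. ITGA2 was higher in WT than in EV (0.62, SE 0.109) and lower in MUT than in WT (-1.01, SE 0.111), with 22.3, 22.5 and 16.7 CPM in MUT, 28.0, 27.4 and 25.3 in EV and 41.9, 42.1 and 40.3 in WT. The 3 lines did not overlap, and the WT differences held under all 26 alternatives, while that of MUT from EV (-0.39, adjusted p 0.02) was lost without EV replicate 1, EV replicate 2 or MUT replicate 3 (highest adjusted p 0.101). ITGB5 was higher in WT than in EV (0.27, SE 0.0579) and lower in MUT than in WT (-0.39, SE 0.058). ITGB1 was lower in MUT than in EV (-0.46, SE 0.0684) and than in WT (-0.31, SE 0.0683), with 631, 501 and 547 CPM against 771, 755 and 784 in EV. The difference from WT had an adjusted p of 0.0996 with only the compared groups in the fit. ITGB2 was higher in WT than in EV by 1.26 (SE 0.209) and lower in MUT than in WT (-0.64, adjusted p 0.0272), the latter lost without MUT replicate 2 or WT replicate 3 (highest adjusted p 0.153). ITGA3 was lower in MUT than in WT (-0.38, SE 0.0881; adjusted p 0.0908 with only the compared groups in the fit).
Other calls between untreated lines each lost the threshold without 1 or more single libraries. These were ITGB3 higher in WT than in EV (0.74), ITGA4 (0.59), ITGAM (1.15) and ITGA2B (2.18) higher and ITGAV (-0.27) lower in MUT than in WT, and LAMA2 (0.67) and ITGB2 (0.62) higher and ITGA7 (-0.44), ITGAV (-0.28) and LAMB1 (-0.24) lower in MUT than in EV.
LAMC3 was lower than in EV in both DNMT3A lines, with log2 differences of -0.45 (SE 0.097) for WT and -0.69 (SE 0.0986) for MUT, and 27.2, 24.9 and 26.4 CPM in EV, 17.6, 18.9 and 21.2 in WT and 17.8, 16 and 14.7 in MUT. WT and MUT overlapped for LAMC3. ITGA11 was lower in MUT than in EV by -1.25 (adjusted p 0.0185), a call lost without EV replicate 3, MUT replicate 1 or MUT replicate 2 (highest adjusted p 0.0768).
These counts moved with the libraries in the fit. With only the compared groups in the fit, members called were 20 in WT against EV and 2 in MUT against EV (ITGB1 and LAMC3). In MUT against WT they were 8, among them ITGA2, ITGB4, LAMA3, LAMA5, LAMB1 and LAMB3. Calls over all genes moved too. In these fits 2426 were higher and 2675 lower of 16173 in WT against EV (main fit 783 and 1342 of 18226). They were 415 and 520 of 16048 in MUT against EV (main fit 1801 and 1831) and 650 and 521 of 16356 in MUT against WT (main fit 2134 and 1738). Without EV replicate 1, 7 members were called in WT against EV, and over all genes 477 higher and 940 lower of 18745. In MUT against EV 6, 4 and 4 were called without EV replicates 1, 2 and 3, and 7 without MUT replicate 1. Over all genes the fits without EV replicates 1, 2 and 3 called 1255, 1176 and 1043 higher and 1333, 1282 and 1210 lower. These were of 18745, 18744 and 18739 tested genes. Without MUT replicate 1 the calls were 1990 higher and 1859 lower of 18663.

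**Figure D4:**
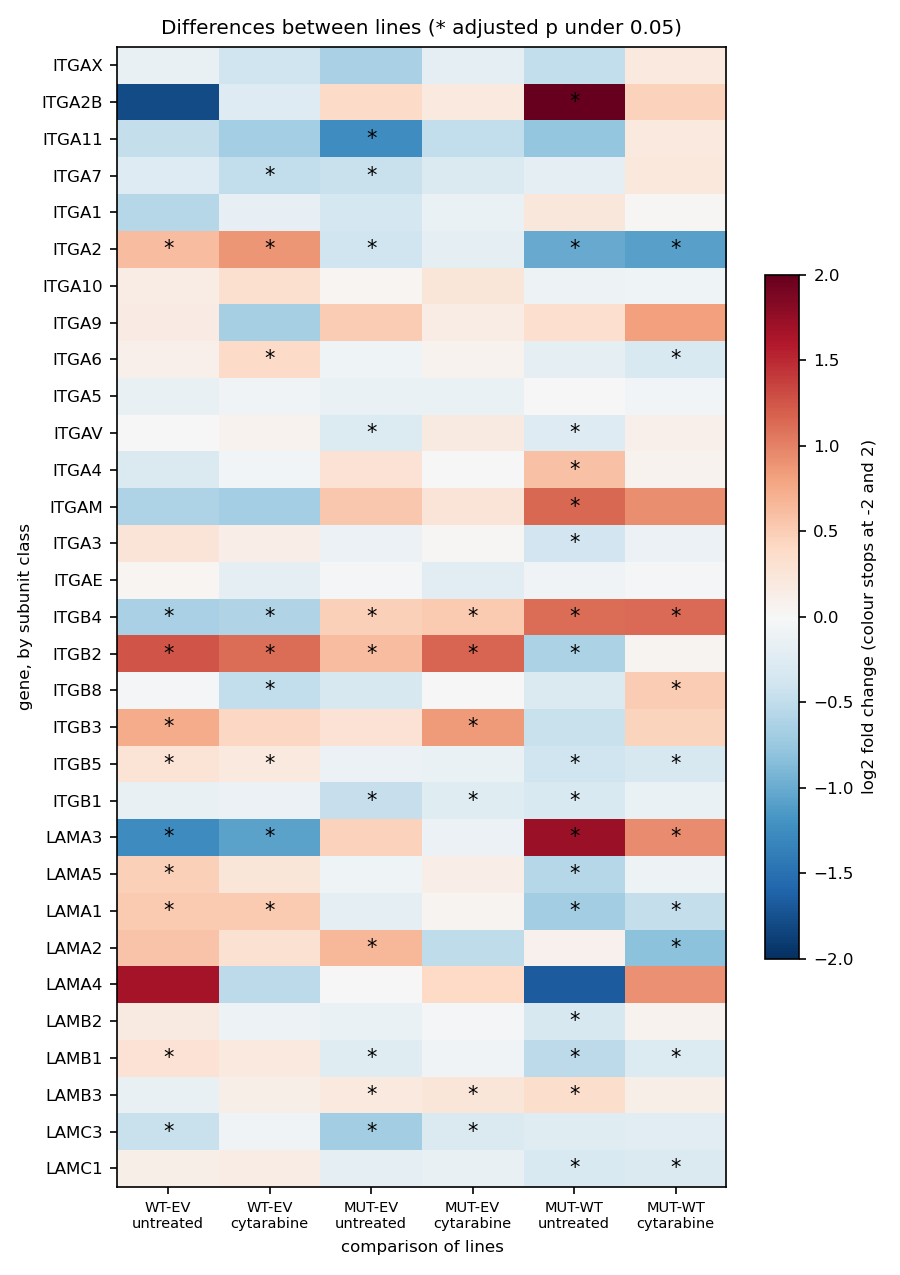
Log2 fold change between lines for tested genes, untreated and with cytarabine (colour stops at -2 and 2; asterisk, adjusted p under 0.05). In the untreated MUT against WT column LAMA3, LAMB3 and ITGB4 are higher and LAMA1, LAMA5, LAMB1, LAMB2 and LAMC1 lower, and ITGB4 has an asterisk in all 6 columns, with the same sign untreated and treated in each pair of lines.

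With cytarabine present, ITGB4 differed in all 3 comparisons of lines, and ITGA2 in those of WT with EV and of MUT with WT. In WT against EV 10 of 32 tested members passed, 5 higher and 5 lower. Of all genes 16.5% passed, 7.41% higher and 9.12% lower. In MUT against EV 6 members passed, 4 higher and 2 lower, and 14.0% of all genes did, 6.85% higher and 7.13% lower. In MUT against WT 10 members passed, 3 higher and 7 lower, and 19.8% of all genes did, 10.4% higher and 9.48% lower. ITGB4 was lower in treated WT than in EV (-0.61, SE 0.115), higher in MUT than in EV (0.52, SE 0.112) and higher in MUT than in WT (1.13, SE 0.114). ITGA2 was higher in WT than in EV (0.89, SE 0.104) and lower in MUT than in WT (-1.08, SE 0.104), while MUT against EV gave -0.19 (adjusted p 0.25) with overlapping libraries. ITGB2 was higher than in EV in both WT (1.11, SE 0.191) and MUT (1.17, SE 0.191), with MUT and WT 0.05 apart.
Fewer laminin chains passed between MUT and WT with the drug. LAMB3 in treated MUT against WT gave 0.12 (adjusted p 0.197) and LAMA5 -0.10 (0.561). LAMA3 remained higher in MUT than in WT (0.95, adjusted p 0.0193), a call lost without treated MUT replicates 1 or 3 or WT replicates 2 or 3 (highest 0.0802). LAMA1 (-0.47, adjusted p 0.0321) was lost without any 1 of the 6 libraries (highest 0.0901), and LAMB1 (-0.27, SE 0.0698) held in all such fits. LAMA2 (-0.82, SE 0.193) was lower in treated MUT than in WT.
The remaining calls between treated lines were as follows. ITGB3 (0.86, SE 0.182) and LAMB3 (0.24) were higher and ITGB1 (-0.24) and LAMC3 (-0.29) lower in MUT than in EV. ITGA6 (0.38), LAMA1 (0.53) and ITGB5 (0.19) were higher and ITGA7 (-0.49, SE 0.101), ITGB8 (-0.50) and LAMA3 (-1.06) lower in WT than in EV. ITGB8 (0.51) was higher and ITGA6 (-0.31), LAMC1 (-0.29) and ITGB5 (-0.33, SE 0.0578) lower in MUT than in WT. Of these, ITGB3, ITGA7 and the MUT against WT difference of ITGB5 kept the call whichever library was left out. Whether the difference itself changed with the drug is the same test as the difference in response: for LAMB3 it was -0.23 (SE 0.0871) with an adjusted p of 0.205, and for LAMA5 0.46 (SE 0.159) with an adjusted p of 0.157.
Counts of called members shifted with single libraries here too. In MUT against EV 3 were called without treated EV replicate 3 or treated MUT replicate 2. Over all genes these fits called 792 and 821 higher and 787 and 788 lower (main fit 1249 and 1299). In MUT against WT 6 and 5 members were called without MUT replicates 1 and 3 and 5 and 6 without WT replicates 2 and 3. Over all genes the calls were 1307, 1394, 1227 and 1389 higher and 1099, 1241, 1086 and 1220 lower (main fit 1889 and 1727). Between 18629 and 18691 genes were tested in these fits.

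The response to cytarabine itself differed between lines for 1 member. Difference tests called 0 of 32 members between WT and EV (0.285% of all genes, 0.143% higher and 0.143% lower) and 0 between MUT and EV (0.214%, with 0.154% higher and 0.0604% lower). They called 1 member between MUT and WT (1.00% of all genes, 0.510% higher and 0.494% lower). At an unadjusted p under 0.05 in the edgeR test, 6, 6 and 17 of the 32 members passed, against 9.96%, 15.8% and 15.4% of all genes. DESeq2 called 1, 1 and 5 members. Over all genes it called 89 higher and 48 lower of 13526, 186 and 367 of 9602, and 171 and 626 of 12545. The 1 member was ITGB8 (chromosome 7, 20330702 to 20415755, plus strand), whose log2 response was 0.80 (SE 0.19, adjusted p 0.0458) larger in MUT than in WT. This call was lost in 14 of the 18 fits that left out a library (highest adjusted p 0.146). Without untreated MUT replicates 1, 2 and 3 the count between MUT and WT was 6, 4 and 2, and that between MUT and EV 3, 1 and 1. Calls over all genes also grew in these fits of 18663, 18652 and 18679 genes. Between MUT and WT 312, 196 and 115 were higher and 498, 478 and 222 lower (main fit 93 and 90). Between MUT and EV 276, 131 and 54 were higher and 390, 204 and 47 lower (main fit 28 and 11).

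Genes that work with integrins and laminins were read from 3 lists written from general knowledge. Cytosolic adhesion complex proteins, which couple the integrin tails to actin, were counted first. Of 44 tested, 9 rose and 20 fell in EV, 12 and 15 in WT and 12 and 18 in MUT. Counting only genes with an average log2 CPM of 1 or more, 7 rose and 13 fell in all 3 lines. Without that cut, 18.9% of all genes rose and 16.4% fell in all 3 lines. Of all genes 26.1%, 26.3% and 30.4% rose and 22.9%, 22.7% and 25.9% fell in EV, WT and MUT, and of genes with an average log2 CPM of 4 or more 39.7%, 37.4% and 41.5% fell. ZYX, the focal adhesion protein zyxin, fell from 295 to 161 CPM in EV (group means; -0.88, SE 0.058), and FLNA, the actin crosslinker filamin A, from 3260 to 2080 CPM (-0.65, SE 0.104). The low-level members PARVG, a parvin of blood cells, and LPXN, a paxillin relative, rose by 1.49 (SE 0.182) and 1.18 (SE 0.141) in EV. The list's median log2 fold change was -0.21 in EV, -0.10 in WT and -0.09 in MUT, where that of the tested integrin genes was 0.35, 0.52 and 0.68.
Other basement membrane genes and non-integrin laminin receptors mostly rose. Of 30 tested, 22 rose in EV, 22 in WT and 23 in MUT, and 4, 3 and 3 fell. In single lines 26.1% to 30.4% of all genes rose and 22.7% to 25.9% fell. With the same cut on average log2 CPM, 19 rose and 2 fell in all 3 lines. Over all genes, without the cut, 18.9% rose and 16.4% fell in all 3. COL17A1, a hemidesmosome collagen that binds ITGB4, rose from 14.0 to 76.2 CPM in EV (2.45, SE 0.102), from 15.1 to 113 in WT (2.90) and from 11.1 to 74.4 in MUT (2.75). COL4A5, a basement membrane collagen chain, rose by 1.80 (SE 0.16), 1.67 (SE 0.153) and 2.34 (SE 0.166). SDC4, a heparan sulfate co-receptor, and RPSA, a ribosomal protein also described as a laminin receptor, fell by 0.58 (SE 0.0813) and 0.39 (SE 0.0883) on the log2 scale in EV.
Of 27 tested non-laminin integrin ligands outside the collagens, 12 rose in each line, while 3 fell in EV, 5 in WT and 2 in MUT, beside the same shares of all genes (26.1% to 30.4% up, 22.7% to 25.9% down). THBS1, thrombospondin-1, fell from 866 to 250 CPM in EV (-1.79, SE 0.141), and THBS4 and the microfibril gene FBN1 rose by 1.73 (SE 0.162) and 1.40 (SE 0.15). With the same cut on average log2 CPM, 9 rose and 1 fell in all 3 lines, where 18.9% and 16.4% of all genes did without the cut.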

How the data were processed

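RNA sequencing of total RNA gave 18 libraries in 6 groups of 3, assigned from the sample titles. Reads were aligned to hg38 with STAR 2.6.1d, per the submitters' processing notes, which also name CASAVA; the counting tool, annotation and use of strand are not given in the sources used here. The authors deposited estimated counts per gene (expected counts, 70.4% whole, not normalized, no gene under 10 in total) and a normalized signal table, in which 34 of the 37 members are found. The deposited signal equals 1 plus a library factor times the estimated count (largest relative deviation 7.33e-06), and it was used only for that factor. No total row was in the table and 0 columns belonged to no sample.

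Estimated counts were rounded and fitted with edgeR 4.0.16 (R 4.3.3): filterByExpr, TMM scaling, all 18 libraries in 1 quasi-likelihood fit with a coefficient per group, Benjamini-Hochberg adjustment over 18226 genes, threshold 0.05. The common biological coefficient of variation was 0.104. Standard errors were derived from the log2 fold change and its F statistic. CPM use the TMM-scaled library size, log2 CPM a prior count of 2. Replicates differed by more than sampling noise in every pair (lowest chi-square per degree of freedom 2.51), so none was merged. This value was 2.51 to 3.73 between untreated EV libraries, 8.1 to 16.51 between treated EV and 23.23 to 51.41 between untreated MUT. All groups share 1 estimate of spread per gene, so standard errors of comparisons with untreated MUT do not show its own wider spread. P-values measure the spread between cultures of 1 line per construct. The fit was tested on simulated data.

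Positions are those of the authors' table; all 37 overlap their GENCODE v44 positions, which gave the exonic lengths. Promoters come from RefSeq (GRCh38.p14). The values of 1 member are not reported here, though counts over the members include it. Any other member could be named; of each companion list, the 2 genes with the largest mean rise and the 2 with the largest mean fall over the lines, among those called 1 way in all 3 whose average log2 CPM was 1 or more. The 4 marker lists covered osteoblast, haematopoietic, endothelial and epithelial genes. The members and the lists were chosen with earlier results of these data known. Alternatives were other scalings (RLE, upper-quartile, the authors' factors), other count filters, a replicate block, only the compared groups, DESeq2 1.42.0 and leaving out each library. The length used for ordering levels was varied after seeing the data.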

Additional observations from a re-analysis of the deposited data

Results flagged for a closer look

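The cytarabine response of ITGB8 differed between MUT and WT by a test of the difference itself: its log2 response was 0.803 larger in MUT. The value ran from 0.63 to 0.915 under 26 alternatives, with adjusted p from 0.00942 to 0.146, and 8 of the 26 called it.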

How the results depend on the processing

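Of 134 member values past the threshold, 0 reversed under any of 26 alternatives, and 81 kept their call under all of them; 3187 of 3463 recomputed values stayed on the same side and 276 did not. Counts of called members moved by over 1.5 times with only the compared groups in the fit: 20 for untreated WT against EV, 2 for untreated MUT against EV, 8 for untreated MUT against WT and 0 for the response of MUT against WT. Over all genes the calls in these fits were 2426 higher and 2675 lower of 16173, 415 and 520 of 16048, 650 and 521 of 16356, and 31 and 20 of 17846. The response difference of MUT against WT gave 2 members with the authors' factors, 0 without a count filter and 2 with a mean of at least 50 counts. It gave 0 with the replicate block and 5 with DESeq2, which also gave 1 member between WT and EV and 1 between MUT and EV. For MUT against WT these settings called, over all genes and in that order, 83, 64, 136, 82 and 171 higher. They called 113, 92, 239, 84 and 626 lower, of 18226, 25296, 13309, 18226 and 12545 tested genes (main fit 93 and 90 of 18226). The cause was not tested. Leaving out 1 library gave 17 to 24 members for cytarabine in EV, 17 to 24 in WT and 20 to 25 in MUT, and 13 to 18 for all 3 lines. It gave 7 to 14, 4 to 13 and 13 to 19 for untreated WT against EV, MUT against EV and MUT against WT. With cytarabine the same comparisons gave 7 to 14, 3 to 8 and 5 to 12, and the differences in response 0 to 0, 0 to 3 and 0 to 6. Calls over all genes moved as well. In untreated WT against EV those higher ran from 449 (without untreated WT replicate 2) to 1108 (without untreated MUT replicate 3), with 783 in the main fit.

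Same-numbered replicates did not deviate together (correlations -0.176 to 0.352, median -0.016, 7 of 45 pairs over 0.1; 8 libraries were closest to their own number), so the numbers were not taken as pairs. With the replicate block 21, 22 and 25 members were called for cytarabine in EV, WT and MUT. Of all 18226 genes 4735, 4761 and 5556 rose and 4245, 4176 and 4698 fell in that fit. Upper-quartile scaling moved the median log2 fold change of all genes in EV to 0.127. RLE scaling moved the share of calls that were higher in untreated MUT against WT from 55.1% to 65.4%, in the response of MUT against EV from 71.8% to 48.1% (upper-quartile 46.3%) and of MUT against WT from 50.8% to 29.1%; the authors' factors moved that of WT against EV from 50% to 68.8%. Members near 1 CPM rest on few counts, and differences there were often not detectable at this depth.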

Other observations

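The 5 members that were not tested were near the limit of detection. ITGA8 had 11, 7 and 11 estimated counts in treated EV libraries and 2, 0 and 3 in untreated EV, and at most 4 in any other library. ITGB6, an epithelial TGF-beta activator subunit, had 10, 9 and 10 estimated counts in treated WT libraries, 0, 2 and 4 in untreated WT and at most 9 elsewhere. ITGAL, ITGB7 and LAMB4 had at most 7, 5 and 6 estimated counts in any library.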
